A study of Mus musculus with 28 samples.

Results

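The injury response of mouse cortex was measured in 2 separate runs of animals, and the question here is which of its changes came back in the second run and which differed in size. Every array title ends in the letters TJ and a number. Numbers 1 to 24 were taken as run 1 and numbers 25 to 42 as run 2, and all 28 of 28 arrays fell into one or the other. Run 1 held 16 arrays, 4 for each combination of genotype and procedure, and run 2 held 12 arrays, 3 for each. The labels do not say what the numbers record and do not call the runs batches.

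The animals were wild type (WT) or Rbm5 knockout (KO) mice, 12 to 15 weeks old, of both sexes. Sham mice had anaesthesia without a craniotomy. Injured mice had a craniotomy and a controlled cortical impact (CCI) at 6 m/s to a depth of 1.2 mm, so each injury change contains the craniotomy as well. Brains were taken 48 h later after perfusion with saline, and 100 ng of RNA from cortical tissue was labelled for the MTA 1.0 array, which reads transcript clusters. The labels used here do not say in which cells Rbm5 was deleted. In run 1 every group had 2 males and 2 females, and in run 2 the KO sham group had 2 males of 3 and each of the others 1 of 3.

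A blow to the cortex kills neurons and opens the blood vessels around them. Microglia and invading monocytes take up debris, neutrophils enter from the blood, and astrocytes become reactive, which means that they build filament proteins such as Gfap and vimentin and secrete protease inhibitors and acute phase proteins. Injured and infected tissue also makes interferon, which switches on a set of antiviral genes through a short promoter element. Neurons near the lesion lose transcripts for receptors, channels and layer markers. In bulk tissue, fewer cells of a type and less RNA per cell cannot be told apart.

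Values are log2 signal as deposited, from 2.214 to 19.93, with array medians between 5.79 and 5.90. An injury change is CCI minus sham within a run, with genotype and sex as further terms, and a difference between runs is the change in run 2 minus that in run 1. The threshold for a call was an adjusted p under 0.05 (limma, Benjamini-Hochberg over all 65956 transcript clusters tested). The targeted gene Rbm5, an RNA-binding splicing regulator, lay at 10.59 to 10.82 on the 14 WT arrays and at 9.66 to 9.84 on the 14 KO arrays, and its injury change was not called in either run (adjusted p = 0.46 in run 1 and 0.381 in run 2, limma). Slc17a7, the vesicular glutamate transporter of cortical excitatory neurons, was bright on every array, from 13.11 to 13.98. The tissue was not equally free of its neighbours. The mean of 12 striatum markers ran from 6.86 to 9.29 over the arrays and that of 11 choroid plexus markers from 5.67 to 7.79. An earlier analysis of these data had named 7 arrays for this. In run 1 they were the injured WT arrays 13, 14 and 16 and the injured KO array 22. In run 2 they were the injured arrays 35 and 40 and the sham array 25. Values without them are given beside some of the differences between runs, not beside all that they move.

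Injury changed much of the transcriptome in both runs. In run 1, 11471 transcript clusters were called, 17.4% of those tested, with 5766 higher (8.74%) and 5705 lower (8.65%) after injury. In run 2, 8895 were called (13.5%), with 4653 higher (7.05%) and 4242 lower (6.43%). Centring each array on its median left the run 1 split near even, at 5283 higher and 6085 lower, but turned that of run 2 to 3480 higher and 6136 lower. The 2 runs share no animal, and 6293 transcript clusters (9.54%) were called in both in the same direction, 3347 higher (5.07%) and 2946 lower (4.47%). Another 5175 were called in run 1 alone (7.85%) and 2599 in run 2 alone (3.94%). Only 3 (0.00455%) were called in opposite directions.

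The larger a change was in one run, the more often it was called in the other. Of the 418 transcript clusters called in run 1 with a rise of at least 1 on the log2 scale, 411 were called higher in run 2 (98.3%), and of the 415 with such a rise in run 2, 394 were called higher in run 1 (94.9%). Falls of that size were rarer, with 29 in run 1, of which 26 were called lower in run 2, and 87 in run 2, all 87 of which were called lower in run 1. Across all calls of run 1, whatever their size, 58% of the rises and 51.6% of the falls were called in run 2. The sign in run 2 was the same for 97.5% of the rises and 93.9% of the falls. Taken over all transcript clusters (these are no independent replicates), Pearson's r between the injury changes was 0.83 (jackknife SE over arrays 0.0465) and Spearman's rho 0.59. All CCI arrays lay on one side of all sham arrays of the same run for 5.57% of transcript clusters in run 1, 8.48% in run 2 and 3.87% in both. Among the 6293 calls shared by the runs these shares were 47.8%, 67.7% and 39.9%. The calls came from the same arrays, so higher shares among them are built in. Groups of 6 arrays, as in run 2, also separate more easily than groups of 8, as in run 1.

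**Figure D1:**
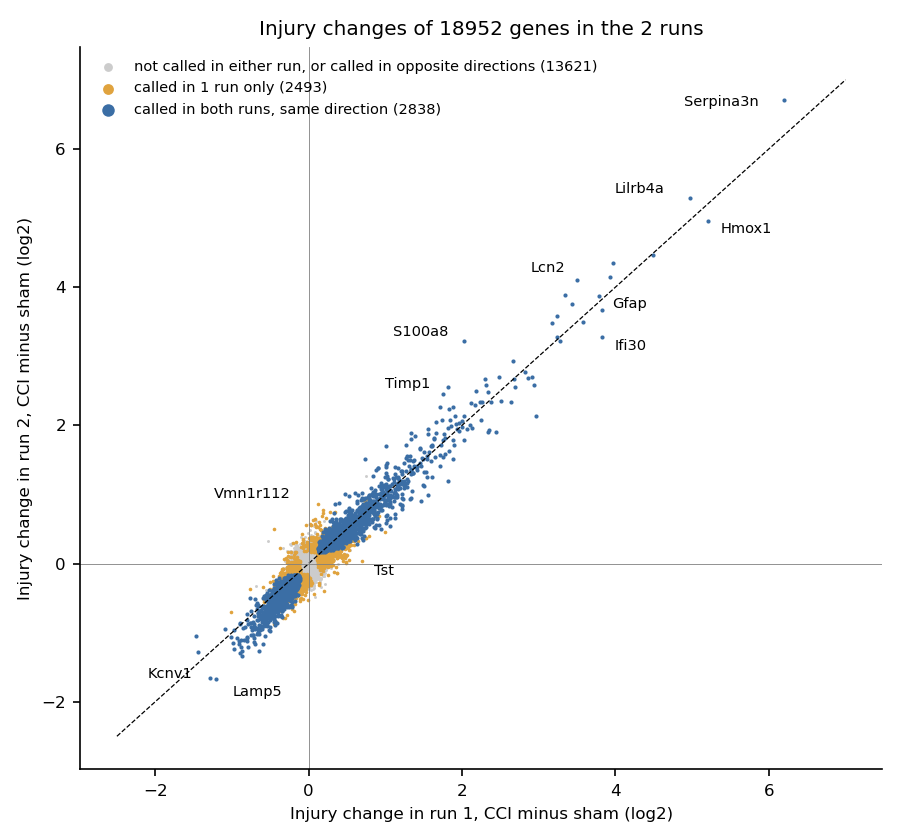
Injury change (CCI minus sham, log2) in run 1 on the horizontal axis and in run 2 on the vertical axis for 18952 named genes, 1 point a gene, coloured by whether limma called it in both runs, in 1 run or in neither, with the dashed line marking equal changes. The largest rises, such as Serpina3n at 6.20 and 6.72, lie along the line, and genes called in 1 run only, such as Vmn1r112 at 0.12 and 0.86, lie closer to 0.

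Reactive astrocyte genes carried the largest rise of both runs. Serpina3n, a secreted serine protease inhibitor that astrocytes make in acute inflammation, ran from 7.81 to 10.31 (median 8.91) on the 8 sham arrays of run 1 and from 14.51 to 15.71 (median 15.06) on the 8 CCI arrays. In run 2 the 6 sham arrays lay between 7.86 and 11.69 (median 8.16) and the 6 CCI arrays between 14.90 and 15.82 (median 15.51). The groups did not overlap in either run, and the rise was 73.4-fold in run 1 and 105-fold in run 2 (log2 6.20 ± 0.28 and 6.72 ± 0.52, SE; adjusted p = 7.0e-10 and 1.5e-05, limma). The highest sham value of run 2 was that of KO sham 31. Without that array the difference between the runs went from 0.52 to 1.00, and it was called in neither case.

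Gfap, the main intermediate filament protein of astrocytes, lay between 10.77 and 12.96 (median 11.89) on sham and between 15.05 and 16.18 (median 15.60) on CCI arrays of run 1. In run 2 it lay between 10.86 and 13.86 (median 10.98) on sham and between 14.69 and 16.01 (median 15.20) on CCI arrays. That is 13.8-fold and 14.7-fold with no overlap, and KO sham 31 was again the highest sham array of run 2, standing at 13.86 against 11.51 for the next. Without it the difference between runs was 0.48 instead of 0.09, uncalled in both settings. Leaving out the 7 arrays also gave 0.48. Vim, which encodes vimentin, the filament partner of Gfap, rose 15.3-fold and 17.7-fold. Lcn2, a secreted iron-siderophore carrier, went from 6.60 to 7.02 on sham up to 9.84 to 10.82 on CCI arrays in run 1, and from 6.63 to 6.78 up to 10.30 to 11.33 in run 2, which is 11.3-fold and 17.2-fold. A2m, a broad protease trap, rose 10.2-fold and 14.9-fold, and Tgm1, a transglutaminase that crosslinks proteins, 9.45-fold and 11.9-fold.

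Of the 23 reactive astrocyte genes measured, 22 rose in both runs, where 8.14% of all named genes did. Slc10a6 was the exception, called in run 2 alone. The median change of the list was 1.33 in run 1 and 1.89 in run 2, and 21 of 23 genes had the larger value in run 2, against 49.7% of all named genes. None of these differences was called. The 4 with an unadjusted p under 0.05 were Timp1, Cp, Lcn2 and Emp1. Timp1, an inhibitor of matrix metalloproteinases, lay between 4.86 and 5.21 (median 5.05) on sham and 6.50 and 7.24 (median 6.86) on CCI arrays of run 1. In run 2 the values were 4.60 to 5.11 (median 5.03) and 6.49 to 8.28 (median 7.53). Its difference of 0.70 (95% interval 0.33 to 1.08) had an adjusted p of 0.369 (limma), and the CCI arrays of the 2 runs overlapped. Cp, the ferroxidase ceruloplasmin, differed by 0.56 (0.21 to 0.90), Lcn2 by 0.61 (0.17 to 1.05). Without the 7 arrays the difference of Lcn2 was 0.28, and that of A2m went from 0.55 to 0.01. The median difference of the list was 0.21 with a jackknife SE of 0.16 over arrays, and lay between 0.16 and 0.28 without any single array. It was 0.32 in WT mice and 0.06 in KO mice, a contrast that was not tested for the list.

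**Figure D2:**
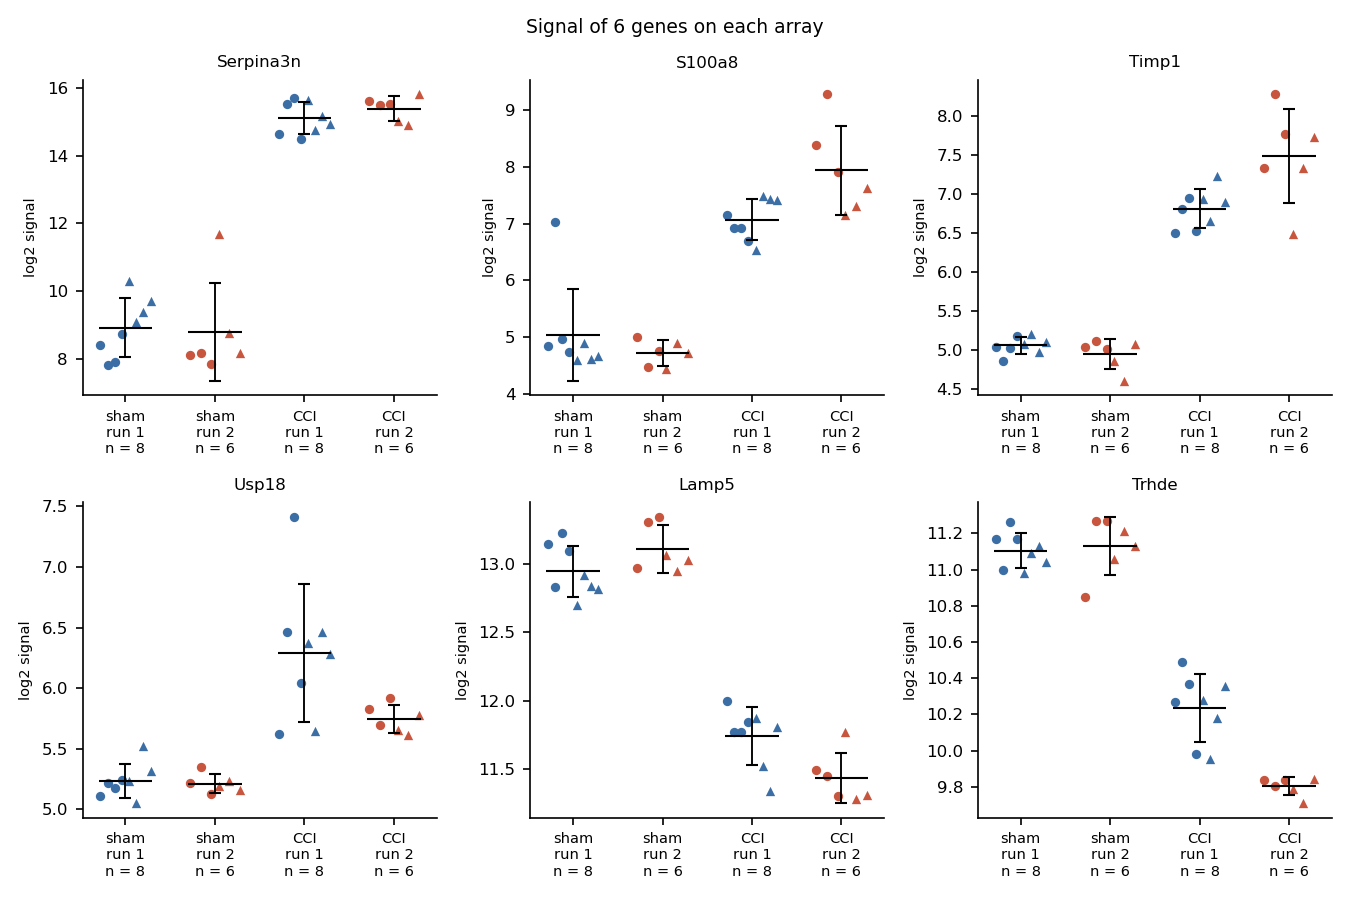
Signal (log2) of Serpina3n, S100a8, Timp1, Usp18, Lamp5 and Trhde on each of the 28 arrays, by procedure and run (blue run 1, red run 2, circles WT, triangles KO), with lines at the mean and bars of 1 SD. CCI and sham arrays of a run are apart in every panel except S100a8 in run 1, where WT sham 2 at 7.02 lies among the CCI arrays, and the 6 run 2 CCI arrays of Trhde lie below all 8 of run 1.

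Of 20 measured phagocyte and lysosome genes, 18 rose in both runs, with medians of 1.70 and 1.86. The median of their single differences was -0.07 with a jackknife SE of 0.24, and its sign was not stable, at 0.02 without the 7 arrays and 0.04 without KO CCI 40. Lilrb4a, which encodes a receptor that restrains myeloid cells, lay between 5.45 and 5.84 on sham arrays of run 1 and 5.51 and 5.80 in run 2, which is close to the array medians, so that a fold is a rough measure. It lay between 10.30 and 11.26 on the CCI arrays of run 1 and 9.89 and 11.54 on those of run 2, a rise of 4.97 ± 0.12 and 5.30 ± 0.22 (log2, SE; adjusted p = 1.3e-12 and 4.1e-07, limma). Its neighbour in the receptor family, Lilr4b, rose 15.6-fold and 20.3-fold. Cd68, a lysosomal membrane protein of macrophages and active microglia, rose 11.9-fold and 11.2-fold. Ly86, the partner of the Toll-like receptor relative Cd180, rose 14.2-fold and 12.8-fold. Its difference between the runs was -0.15, and 0.34 without the 7 arrays. Lyz2, the lysozyme of myeloid cells, rose 10.8-fold and 13.6-fold.

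Other immune and repair groups also rose in both runs. Of 15 monocyte genes 13 rose in both runs, among them Ms4a6c at 4.07-fold and 4.40-fold. Of 13 complement genes 9 rose in both, led by C1qb, part of the molecule that starts the classical pathway, at 7.53-fold and 6.53-fold, and C4b, a later step of it, at 6.36-fold and 7.64-fold. Of 27 cytokine and chemokine genes 16 rose in both. Ccl12, a chemokine that draws monocytes, went from 4.57 to 5.16 on sham up to 8.62 to 10.37 on CCI arrays in run 1, and from 4.62 to 5.37 up to 8.75 to 9.94 in run 2, with changes of 4.49 and 4.47. Ifi30, a thiol reductase of the antigen-processing lysosome, rose 14.2-fold and 9.68-fold, with a difference of -0.55 (95% interval -1.27 to 0.18). Fcrls, a microglial Fc receptor relative, rose 9.68-fold and 9.28-fold, and 6 of 11 homeostatic microglia genes rose in both runs. The difference of Fcrls was -0.06, and 0.35 without the 7 arrays.

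Hmox1, the enzyme that breaks down haem, lay between 5.35 and 5.78 on sham and between 10.20 and 11.56 on CCI arrays of run 1. In run 2 it lay between 5.39 and 5.83 on sham and between 9.78 and 11.45 on CCI arrays. The changes were 5.21 and 4.96, and their difference of -0.25 became 0.15 without the 7 arrays. Of 22 cell cycle genes 21 rose in both runs, with medians of 0.91 and 0.87. Mki67, present only in cycling cells, rose by 3.24 and 3.27, and Top2a, which untangles replicated DNA, by 2.10 in run 1 and was called in run 2 as well. Of 22 matrix and wound repair genes 16 rose in both runs, led by Tgfbi, an adhesion protein of the matrix, at 9.04-fold and 11.1-fold. Of 17 endothelial genes 6 rose in both runs, where 8.14% of all named genes did, and 1 fell in both. Another 6 were called in a single run.

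Many neuronal genes, though not all on the lists, fell in both runs. Kcnv1, a silent potassium channel subunit of cortical neurons, lay between 11.53 and 12.28 (median 11.76) on sham and between 10.28 and 11.01 (median 10.46) on CCI arrays of run 1. In run 2 the ranges were 11.82 to 12.08 (median 11.89) and 9.86 to 10.93 (median 10.18). The groups did not overlap, and the gene fell by 1.29 in run 1 and fell by 1.66 in run 2 (log2; adjusted p = 1.4e-06 and 3.6e-05, limma). Lamp5, a membrane protein of upper-layer and of some inhibitory neurons, lay between 12.70 and 13.23 on sham and between 11.34 and 12.00 on CCI arrays of run 1, and between 12.95 and 13.35 and between 11.28 and 11.77 in run 2. It fell by 1.21 and by 1.67, with a difference of -0.46 (95% interval -0.74 to -0.19; adjusted p = 0.428, limma).

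Receptors and signalling proteins were among the repeated falls. Npy1r, a receptor of neuropeptide Y, fell by 1.01 and by 1.07. Cckbr, the cholecystokinin receptor of the brain, fell by 0.89 and by 1.29, and Rgs4, which shortens signals through such receptors, fell by 0.91 and by 1.13. Car10, a carbonic anhydrase relative without enzyme activity, fell by 0.99 and by 1.15. Pcsk1, a protease that matures neuropeptides, fell by 0.97 and by 0.96, and Efna5, a ligand of Eph receptors, by 0.93 and by 1.08. The CCI and sham arrays of these 6 genes did not overlap in either run. Of the other genes among the 15 largest repeated falls, Npas4, Nr4a1 and Ogn overlapped in both runs. Egr3, Olfr464, Prmt8 and Brinp1 overlapped in neither.

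By list, 10 of 16 excitatory neuron genes fell in both runs, against 6.84% of all named genes, with medians of -0.43 and -0.54. Rorb, a layer 4 transcription factor, fell by 0.72 and by 1.04. Of 19 synapse genes 11 fell in both, among them Grin2a, a subunit of the NMDA receptor, by 0.56 and by 0.66. Of 16 inhibitory neuron genes 6 fell in both, among them Erbb4, the neuregulin receptor of interneurons, by 0.60 and by 0.82. In each of these 3 lists the median was further below 0 in run 2, and the difference was positive for only 3 of 16, 4 of 19 and 3 of 16 genes. The median differences were -0.19, -0.10 and -0.10 with jackknife SEs of 0.15, 0.087 and 0.15, and without the 7 arrays they were -0.04, -0.02 and -0.10, with 4 of 16, 8 of 19 and 3 of 16 positive.

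**Figure D3:**
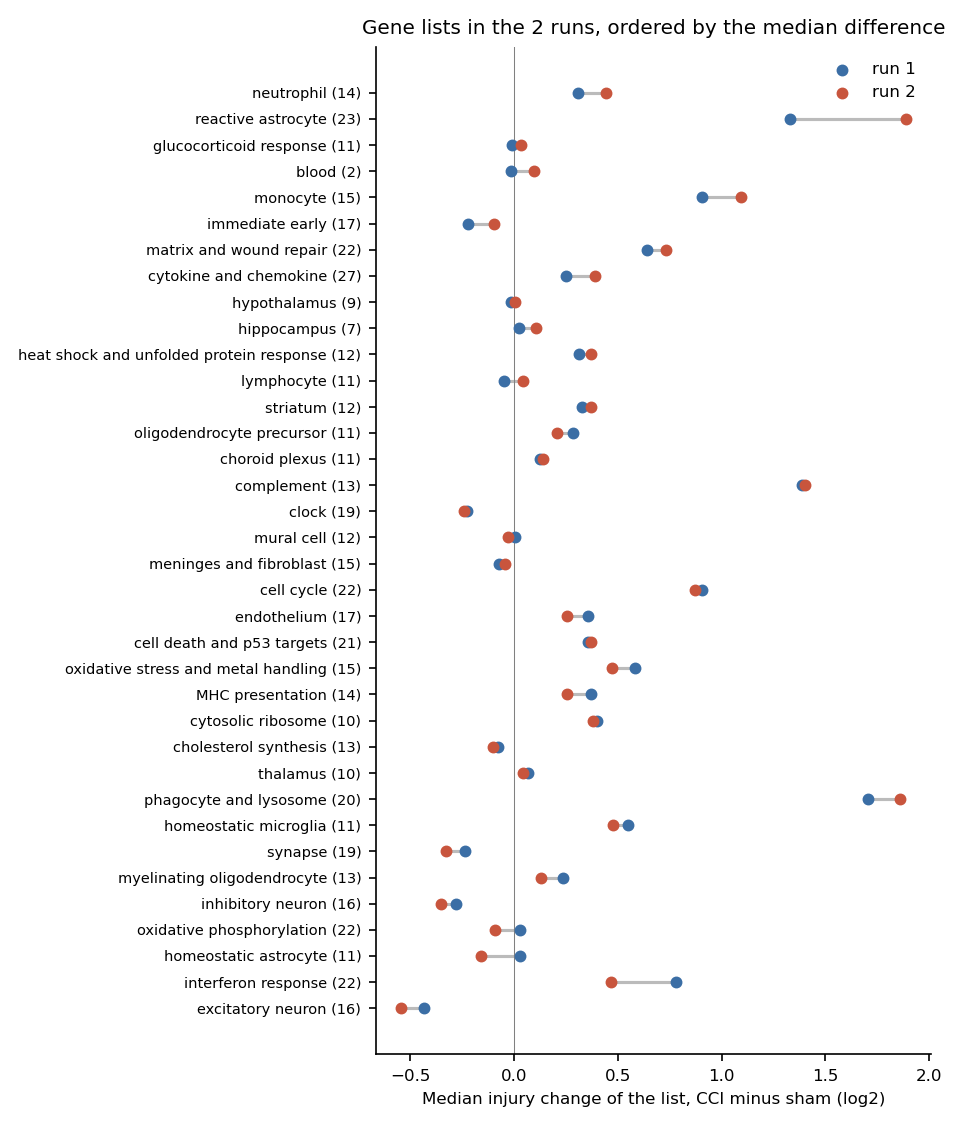
Median injury change (CCI minus sham, log2) of 36 gene lists in run 1 (blue) and run 2 (red), with the number of measured genes in brackets and the lists ordered by their median difference between runs. The neutrophil and reactive astrocyte lists stand at the top and the interferon and excitatory neuron lists at the bottom, and the reactive astrocyte and interferon lists show the widest gaps, 1.33 to 1.89 and 0.78 to 0.47.

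Neutrophil genes rose in both runs in 8 of 14 cases and had the larger value in run 2 in 12 of 14. The median difference was 0.21, with 0.32 in WT and 0.02 in KO mice, and without the 7 arrays it was 0.09 with 8 of 14 genes larger in run 2. S100a8, a subunit of the calprotectin complex that fills the neutrophil cytoplasm, ran from 4.60 to 7.02 (median 4.79) on sham and from 6.53 to 7.48 (median 7.04) on CCI arrays of run 1. In run 2 it ran from 4.44 to 5.01 (median 4.75) on sham and from 7.15 to 9.27 (median 7.76) on CCI arrays. The high sham value of run 1 was WT sham 2, which was also the highest for its partner S100a9, at 7.79 against 6.38 for the next. The injury change of S100a8 was 2.03 in run 1 and 3.23 in run 2, and their difference of 1.20 (95% interval 0.32 to 2.08) was not called (adjusted p = 0.531, limma). Without WT sham 2 it was 0.91. The median sham values sat below the array medians, so that a fold is a rough measure. Cxcr2, the chemokine receptor that guides neutrophils, changed by 0.28 in run 1 and 0.62 in run 2, a difference of 0.35 (0.18 to 0.51; adjusted p = 0.316). The CCI arrays for it lay between 5.71 and 6.07 in run 1 and between 6.07 and 6.44 in run 2. Ngp, Ltf, Camp, Mpo and Elane were called in neither run, while the other list members, Mmp8 and Mmp9 among them, were called in at least 1. The 11 lymphocyte genes were called in neither run.

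Interferon genes went the other way. Of 22 measured, 18 rose in both runs, but the median change was 0.78 in run 1 and 0.47 in run 2, and only 2 of 22, Ifitm2 and Ifi35, had the larger value in run 2. Usp18, which removes the Isg15 tag and damps the interferon receptor, lay between 5.05 and 5.52 on sham arrays of run 1 and 5.12 and 5.35 on those of run 2. Its CCI values in run 1 were 5.62, 6.46, 7.42 and 6.05 in WT and 6.37, 5.65, 6.47 and 6.29 in KO mice. In run 2 they were 5.83, 5.69 and 5.92 in WT and 5.65, 5.61 and 5.78 in KO mice. Arrays of run 1 thus reached 7.42, while all 6 of run 2 lay at 5.92 or below, and the difference of -0.52 (95% interval -0.99 to -0.05) was not called (adjusted p = 0.593, limma).

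The mean of the interferon list shows the same spread. Over the 8 CCI arrays of run 1 it ran from 6.46 (WT CCI 13) to 7.45 (WT CCI 15) with a mean of 6.86 ± 0.33 (SD), and over the 6 of run 2 from 6.52 to 6.77 with a mean of 6.65 ± 0.096 (SD). Sham arrays had means of 6.03 and 6.01. The median difference of the list was -0.17 with a jackknife SE of 0.15, and without any single array it lay between -0.23 and -0.11, with 2 to 8 genes larger in run 2. It was -0.16 in WT and -0.16 in KO mice.

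**Figure D4:**
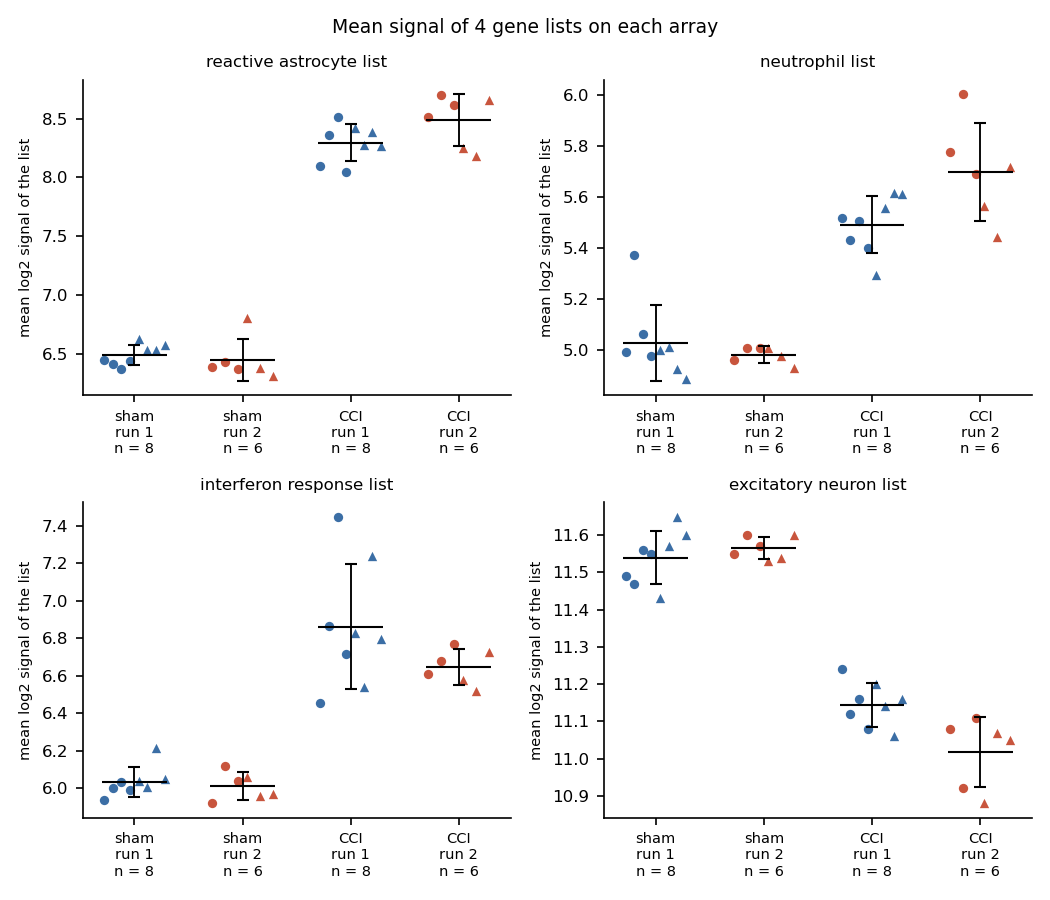
Mean signal (log2) of the reactive astrocyte, neutrophil, interferon response and excitatory neuron lists on each of the 28 arrays, by procedure and run (blue run 1, red run 2, circles WT, triangles KO), with lines at the mean and bars of 1 SD. For the interferon list the 8 CCI arrays of run 1 spread from 6.46 to 7.45 and the 6 of run 2 from 6.52 to 6.77.

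Interferon acts on many of these genes through a short promoter element. Promoter windows of 300 bases around the gene start, from RefSeq on GRCm38.p6, were found for 18 of the 22 genes (none for Mx1, Usp18, Rtp4 and Ifi27l2a) and searched on both strands for GAAA, any 2 bases and GAAA again, which reads TTTC, any 2 bases and TTTC on the opposite strand. It occurred in 11 of 18 genes (61.1%), against 3.99% of 27025 genes with a window. The stretches below, 5′ to 3′ on the strand of the gene and wholly upstream of its start, show the element in capitals, overlapping copies run together, for 4 genes with the smaller value in run 2 and for Ifitm2, which had the larger. They come from chr19:34640779-34640838 (+), chr19:34583382-34583441 (+), chr3:142559980-142560039 (+), chr5:120907526-120907564 (-) and chr7:140955973-140956032 (-) in that order.
Ifit1: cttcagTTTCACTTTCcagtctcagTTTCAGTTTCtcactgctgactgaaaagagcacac
Ifit3: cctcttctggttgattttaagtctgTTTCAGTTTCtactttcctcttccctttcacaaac
Gbp3: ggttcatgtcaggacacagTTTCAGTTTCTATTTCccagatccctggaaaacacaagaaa
Oas1a: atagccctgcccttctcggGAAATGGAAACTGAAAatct
Ifitm2: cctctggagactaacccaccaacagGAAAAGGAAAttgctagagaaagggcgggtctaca
Ifit1, an RNA-binding translation blocker, rose by 1.06 in run 1 and 0.66 in run 2, and its relative Ifit3 by 1.12 and 0.72. Gbp3, a guanylate-binding protein, rose by 1.01 and 0.59, and Oas1a, which makes the activator of RNase L, by 0.63 and 0.28. Ifitm2 and Ifitm3, membrane proteins that block viral entry, had the largest changes of the list, at 1.81 and 1.96 for the first and 2.85 and 2.68 for the second. The element is thus present both in genes whose value was smaller in run 2 and in one whose value was not, and a match describes these letters only.

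Leaving out the 7 arrays named for striatum or choroid plexus markers widened the gap in the interferon list. Its medians became 0.96 and 0.48 and its difference -0.32, with 1 of 22 genes larger in run 2. The remaining CCI arrays had list means of 7.08 ± 0.32 (SD, n = 4) in run 1 and 6.66 ± 0.11 (SD, n = 4) in run 2. Between the CCI arrays of the runs no transcript cluster was called with all arrays. In this setting WT CCI 15 alone stands for the injured WT mice of run 1. It carries as much weight as the injured KO arrays of that run together. The fit has no spread for it, so calls between these CCI arrays are not given. Picked from the interferon list by this contrast, 4 genes were lower in run 2, Usp18 (-1.10), Oasl2 (-0.92), Gbp3 (-0.88) and Trim25 (-0.30). Named after their values were seen, Rnf213, Trim30a, Ddx60, Ifih1 and Eif2ak2, known responders to interferon or to foreign RNA, were lower too, Rnf213 by most at -1.21. With all arrays the values for Usp18 and Rnf213 were -0.58 and -0.64, uncalled. The change from sham to CCI in these genes was still not called as different between runs. This setting leaves 1 injured WT array in run 1, WT CCI 15, which had the highest interferon mean of all, and it drops the arrays with the lowest means of run 1, WT CCI 13 (6.46) and KO CCI 22 (6.54).

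A test of the difference itself called few transcript clusters. Of 65956, 9 were called (0.0136%), all with the more positive change in run 2, and 5186 had an unadjusted p under 0.05. Of the 7774 called for injury in 1 run only, 1813 had an unadjusted p under 0.05 for the difference and 7 were called for it. The median standard error of a difference was 0.12, against 0.073 for the injury change in run 1 and 0.085 in run 2. No member of the 36 gene lists was called. Of the 6293 called in both runs, 4148 (65.9%) had the larger change in run 2, with median absolute changes of 0.41 and 0.46. With the larger standard error of run 2, a call there asks for a larger change. The filter itself thus favours larger values in run 2, and this share cannot measure a stronger response. In 30 of them the runs differed by at least 0.58 on the log2 scale.

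Of the 9, 7 are unnamed transcript clusters among the brightest on the array, 6 on chromosome 9 and 1 on chromosome 2. In all 7 the runs parted on the sham side. The 6 on chromosome 9 are closely numbered, from TC0900000002.mm.1 to TC0900000008.mm.1. They shifted alike between the sham arrays, by -0.85 to -1.19. Whether they read separate transcripts was not tested, so they cannot be counted as 6 separate results. TC0900000005.mm.1 lay between 18.65 and 18.78 (median 18.77) on the 8 sham arrays of run 1 and between 17.29 and 17.89 (median 17.64) on the 6 of run 2. Its CCI arrays lay between 18.76 and 19.11 in run 1 and between 18.71 and 18.88 in run 2. The injury change was 0.14 in run 1 and 1.16 in run 2 (difference 1.01 ± 0.097, SE; adjusted p = 1.4e-05, limma). TC0200001502.mm.1 on chromosome 2 lay between 17.66 and 18.48 on sham arrays of run 1, between 15.53 and 16.64 on those of run 2, and between 18.46 and 19.29 on all CCI arrays. Its changes were 0.62 and 2.69, a difference of 2.07 ± 0.24 (adjusted p = 0.00024). In each of the 7, the 6 run 2 sham arrays lay below all 22 other arrays. They were called from the same arrays, so this separation is built in. Its share over all transcript clusters was not computed. The remaining calls were a predicted gene, Gm15355, which moved by -0.22 in run 1 and by 0.24 in run 2, and an unnamed transcript cluster on chromosome 18 with a difference of 0.69. Without any single array 6 to 13 transcript clusters were called.

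**Figure D5:**
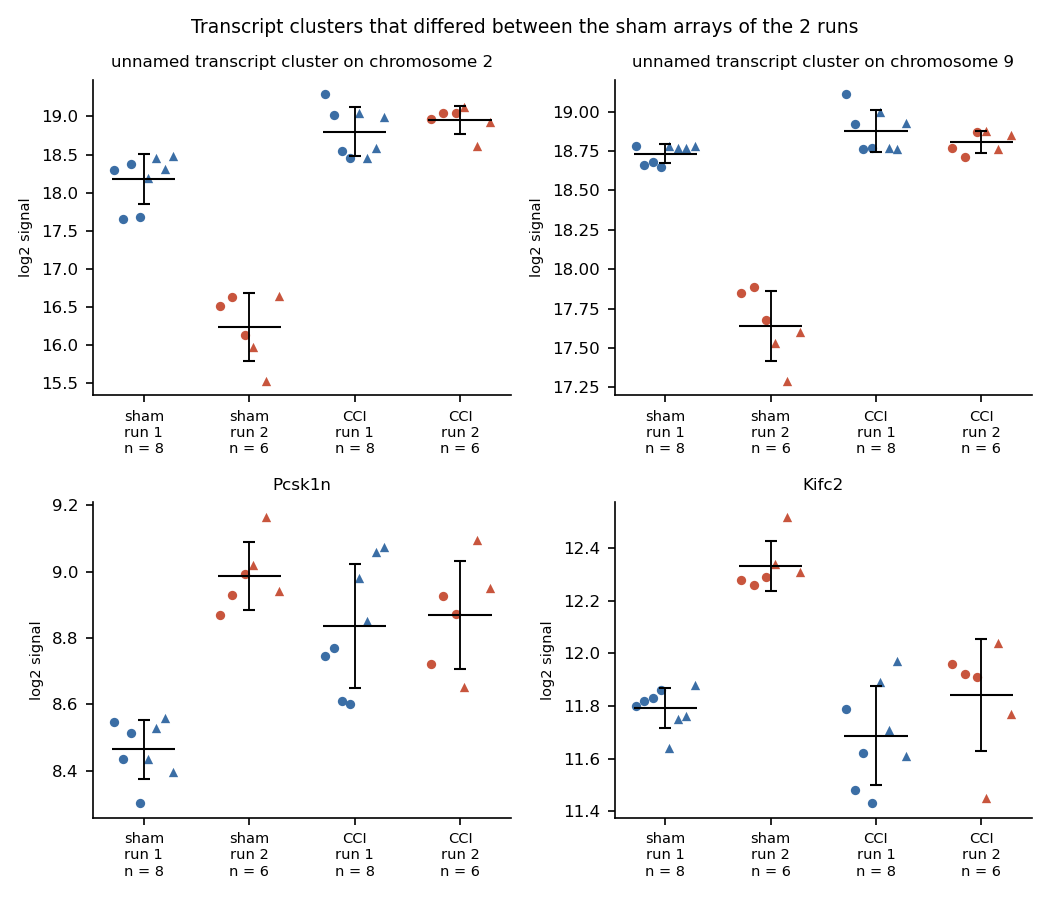
Signal (log2) of 2 unnamed transcript clusters and of Pcsk1n and Kifc2 on each of the 28 arrays, by procedure and run (blue run 1, red run 2, circles WT, triangles KO), with lines at the mean and bars of 1 SD. In each panel the 6 run 2 sham arrays stand apart from the 8 run 1 sham arrays, as for Pcsk1n at 8.87 to 9.17 against 8.30 to 8.56, while the CCI arrays of the 2 runs overlap.

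Between the sham arrays of the runs 37 transcript clusters were called (0.0561%), 18 higher (0.0273%) and 19 lower (0.0288%) in run 2. The closely numbered ones on chromosome 9 were among those lower. Between the CCI arrays none was called by limma, and 7554 had an unadjusted p under 0.05. The sham count rested on single arrays and on the setting, from 11 without WT sham 27 to 170 without KO sham 31. The genes in this paragraph were picked after their values were seen. Pcsk1n, an inhibitor of the neuropeptide protease Pcsk1, lay between 8.30 and 8.56 (median 8.47) on sham arrays of run 1 and between 8.87 and 9.17 (median 8.97) on those of run 2, with no overlap and a difference of 0.52 (adjusted p = 0.00028). On CCI arrays it lay between 8.60 and 9.07 in run 1 and between 8.65 and 9.10 in run 2. Its injury change was thus called as a rise of 0.37 in run 1 (adjusted p = 0.00041) and was -0.14 in run 2 (adjusted p = 0.287). The difference of -0.51 (95% interval -0.71 to -0.31) had an adjusted p of 0.101, and 0.043 after centring each array on its median. Kifc2, a kinesin motor of neurons, was 0.54 higher in run 2 sham arrays and fell by 0.50 in run 2, against a change of -0.11 in run 1. Chst1, a sulfotransferase, was 0.45 higher in run 2 sham arrays, and its injury change was called in neither run.

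Below the threshold, the genes with the smallest p for a more negative change in run 2 included several that fell in both runs. Trhde, an enzyme that degrades thyrotropin-releasing hormone, lay between 10.98 and 11.26 on sham arrays of run 1 and between 10.85 and 11.27 on those of run 2. On CCI arrays it lay between 9.95 and 10.49 (median 10.27) in run 1 and between 9.71 and 9.84 (median 9.82) in run 2, without overlap. It fell by 0.87 and by 1.34, with a difference of -0.47 (95% interval -0.70 to -0.25; adjusted p = 0.283, limma). Without the 7 arrays, which leaves 1 injured WT array in run 1, this difference was -0.59. Camkk2, a kinase upstream of the calmodulin-dependent kinases, fell by 0.60 and by 1.16. Tbc1d30, a regulator of a Rab GTPase, fell by 0.57 and by 1.04. Ankrd34c fell by 0.65 and by 1.27, and Zdhhc8, which attaches palmitate to synaptic proteins, by 0.44 and by 0.88. None of these 4 differences was called (adjusted p from 0.24 to 0.273, limma). In the order named they were -0.57, -0.48, -0.63 and -0.45, and without the 7 arrays -0.50, -0.49, -0.55 and -0.31. Tesk1 and Map3k10, also among these 8 genes, changed by 0.03 and -0.01 in run 1 and by -0.25 and -0.33 in run 2. For Zdhhc8, Tesk1 and Map3k10 all run 2 sham arrays lay above all other arrays, so these runs parted on the sham side. The 8 genes were picked by the p of the difference, which favours such a separation. The 8 genes with the smallest p for a more positive change were Cxcr2, Wdr20rt, Trbv1, Vmn1r119, Ighv8-6, Fam209, Tas2r138 and Tarm1, none called.

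Some genes were called in 1 run and lay far from the threshold in the other. Tst, the mitochondrial sulfurtransferase rhodanese, lay between 6.96 and 7.43 on sham and between 7.47 and 8.10 on CCI arrays of run 1, and between 7.00 and 7.47 and between 6.84 and 7.64 in run 2. It rose by 0.69 in run 1 and had a change of 0.04 in run 2 (difference -0.65; adjusted p = 0.384, limma). Alg14, a subunit of an enzyme of N-glycan assembly, rose by 0.53 in run 1 with 0.05 in run 2, and Cox6b1, a subunit of cytochrome c oxidase, rose by 0.49 with 0.00 in run 2. From run 2 came Depp1, a target of FoxO factors, which rose by 0.63 with 0.05 in run 1. Vmn1r112, a pheromone receptor of the nose with signal below the array median, rose by 0.86 with 0.12 in run 1. None of these differences was called. Without the 7 arrays the rise of Cox6b1 in run 1 was no longer called (adjusted p = 0.0724, limma), and the differences of Alg14, Cox6b1 and Depp1 went from -0.48, -0.48 and 0.58 to -0.21, -0.23 and 0.33.

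Within each genotype the runs could be set side by side with fewer arrays. In WT mice injury calls numbered 6052 in run 1 (9.18%; 5.42% higher and 3.76% lower) and 7310 in run 2 (11.1%; 6.34% higher and 4.74% lower). In KO mice they numbered 7755 in run 1 (11.8%; 6.36% higher and 5.4% lower) and 4658 in run 2 (7.06%; 3.48% higher and 3.59% lower). The run difference was called for 3 transcript clusters in WT (0.00455%) and for 9 in KO mice (0.0136%; 8 higher, 0.0121%, and 1 lower, 0.00152%), of which 1 in WT and 7 in KO mice were the bright unnamed ones on chromosomes 9 and 2. The difference between the genotypes in this was called for none by limma, with 5041 at an unadjusted p under 0.05. The named gene was Pf4, a chemokine of platelets and of brain border macrophages. In WT mice its sham values were 6.46, 6.19, 6.06 and 5.91 in run 1 and 5.45, 5.59 and 5.66 in run 2. The CCI values were 6.72, 6.47, 6.76 and 6.41 in run 1 and 7.26, 7.33 and 7.68 in run 2. It changed by 0.44 in run 1 and by 1.85 in run 2 (difference 1.42 ± 0.22, SE; adjusted p = 0.047), while in KO mice it changed by 1.57 and by 0.97. The call in WT mice was lost, with none left, on leaving out any single WT sham array. The same held for WT CCI 14, WT CCI 16 and WT CCI 34.

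The tissue neighbours varied between single arrays as well. The median run difference of the 12 striatum markers was -0.22 in WT and 0.37 in KO mice, and that of the 11 choroid plexus markers -0.30 and 0.47. KO CCI 40 had list means of 9.29 and 7.56, against 7.13 and 5.69 on KO CCI 41 and 7.77 and 5.83 on KO CCI 42. Among WT arrays, sham 25 (7.68) and CCI 14 (7.79) were the highest for choroid plexus. The WT and KO values were not computed without single arrays. No marker of either list was called for injury in either run. Over both genotypes the run differences of these lists were 0.03 and 0.02, with wide limits. Without single arrays the striatum value ran from -0.28 (without KO CCI 40) to 0.32 (without WT CCI 34) and the choroid plexus value from -0.11 to 0.25 (the same arrays). The part of the tissue neighbours in the genotype values was not tested.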

How the data were processed

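The deposited table holds 1 log2 signal value per transcript cluster and array, as read from the values; the summarisation, the normalization and the software are not given in the sources used here. Per the labels' protocols, RNA was extracted with Trizol and biotin-labelled for the array. The deposited log2 values were used as they stand. Of 72688 rows, 6732 controls were left out and 65956 were tested. Gene names came from GEO's platform annotation, with symbols updated through the gene ID; 30986 rows were named, and 94 whose chromosome disagreed were left unnamed.

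Samples were grouped by the labels, and runs by the title numbers. Injury was fitted within each run with genotype and sex as terms, and the difference between runs, the run contrasts in sham and in CCI arrays and the contrasts within a genotype were fitted over all 28 arrays, with limma 3.58.1 in R 4.3.3 (lmFit, eBayes, Benjamini-Hochberg over all rows tested). The 2 runs are described with Python 3.11.15. The fit was tested on simulated data. The number of arrays limits the precision, and p-values measure the spread between these animals. By rule, the named genes were the 15 largest repeated rises and falls and the 8 smallest p-values for a difference in each direction. The rule added the 5 clearest in 1 run only and 2 per list. Only part of this set is described in the text. Other genes in the text are said to have been chosen after their values were seen or are list members. The runs, the lists and these rules were chosen with earlier results of these data known. Alternatives were no sex term, median centring, quantile normalization, brighter rows, rows with 1 symbol, an intensity trend, array weights, stricter thresholds, leaving out 7 arrays and each array in turn.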

Additional observations from a re-analysis of the deposited data

Results flagged for a closer look

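Sets of 6 or 8 arrays of 1 run and procedure were searched for an array far from the rest. Of 240 sets, over 60 genes and transcript clusters, 22 held one, 17 of them in sham and 5 in CCI arrays. Chance gives about 1 in 20 sets where the sets are independent. These sets share arrays and pool both genotypes, so their count cannot show an excess. KO sham 31 was the high array for Serpina3n (11.69), Gfap (13.86), A2m (6.764), Cd68 (8.059), C1qb (9.685), C4b (8.017), Ifi30 (6.418), Mki67 (6.143) and Top2a (5.678). WT sham 2 was high for S100a8 (7.021) and S100a9 (7.793), KO sham 12 for Cp (8.163) and Cox6b1 (12.85), and KO sham 11 for Oas1a (5.296). WT sham 3 was low for Ifi30 (5.578), KO sham 32 for Oasl2 (4.803) and KO sham 33 for Gbp3 (5.933). Among CCI arrays, KO CCI 23 was low for Mki67 (7.539), KO CCI 41 was high for Car10 (13.4) and low for the chromosome 2 transcript cluster (18.61), WT CCI 15 was high for Usp18 (7.416), and WT CCI 36 stood apart for a chromosome 9 transcript cluster (18.65).

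The injury change differed between the runs by test in 9 transcript clusters. The differences (run 2 minus run 1, log2) were 1.015, 0.9744, 1.167, 0.7996, 1.067 and 0.9744 on chromosome 9, 2.068 on chromosome 2, 0.6882 on chromosome 18 and 0.4663 for Gm15355. In WT mice the differences called were 1.417 for Pf4, 0.779 for a chromosome 9 transcript cluster and 0.7442 for an unnamed one on chromosome 12. In KO mice they were 1.262, 1.025, 1.238, 1.404, 1.358, 1.293 and 0.9391 on chromosome 9, 2.383 on chromosome 2 and -1.754 on chromosome 4.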

How the results depend on the processing

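No paired analysis was possible because each title number occurs once, so no number is shared between groups. No called named gene reversed its direction under the alternatives run, but centring turned the majority of calls from higher to lower in both runs (5283 higher and 6085 lower in run 1, 3480 and 6136 in run 2). The calls for injury rested on the threshold: at an adjusted p under 0.01 there were 7320 in run 1, 4681 in run 2 and 3516 in both, and at an adjusted p under 0.05 with at least 1.5-fold there were 1844, 2184 and 1338. Without the 7 arrays run 1 had 7236. The correlation was 0.8891 over brighter rows and 0.8767 over rows with 1 symbol. The run difference was called for 1 of the rows with 1 symbol. In WT mice it was called for 0 after centring, quantile normalization, with 1 symbol or at 0.01. In KO mice it was called for 17 after centring, 20 over brighter rows, 0 with 1 symbol, 17 with the trend, 5 at 0.01 and 1 without the 7 arrays. Sham calls numbered 100 without the sex term, 83 after centring, 215 after quantile normalization, 297 over brighter rows, 20 with 1 symbol, 112 with the trend, 374 with array weights, 11 at 0.01, 12 with 1.5-fold and 22 without the 7 arrays. CCI calls rose from 0 to 37 without the 7 arrays. The cause of these shifts was not tested.

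Leaving out 1 array at a time gave 10181 to 10967 calls in run 1, 6679 to 8979 in run 2, 4970 to 6408 in both and 6 to 13 for the difference. It gave 0 to 3 in WT mice, 3 (without KO CCI 40) to 24 (without KO CCI 21) in KO mice, 11 to 170 in sham arrays and 0 to 13 (without KO CCI 41) in CCI arrays, with a correlation of 0.7961 to 0.8406. Genes near or below the array medians have rough folds. Of the named genes called for injury, 92 of 99 in run 1 and 89 of 103 in run 2 stayed called without any single array, and 71 and 73 stayed called under all other alternatives.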
